A study of Drosophila melanogaster with 32 samples.

Results

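The 16 arrays of females from the 4 promiscuous populations P1, P2, P3 and P4 were compared with each other, out of 32 arrays in the series. They were taken by the label of the female's regime and grouped by the female's population, which gave 4 arrays for each population. RNA of whole mated females of Drosophila melanogaster, the fruit fly, was hybridised to Affymetrix arrays of the Drosophila Genome 2.0 design, with 1 sample on each. All 8 laboratory populations of the series were founded from the LHM base stock and had evolved for 46 generations, the promiscuous ones (P1 to P4) with multiple mating and the monogamous ones (M1 to M4) with 1 mating per generation. Females of each promiscuous population had mated with males of their own population or of the same-numbered monogamous population, and were frozen 6 h later. Each of these 8 crosses had 1 array in batch 1 and 1 in batch 2. The age of the flies and the number of flies per array are not given in the sources used here.

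Populations split from 1 base stock drift apart because alleles are sampled anew in every generation, and each can also fix its own answer to a shared regime. Differences among replicate populations of 1 regime are therefore the background against which a difference between regimes has to be read. In flies, enzymes of digestion and of detoxification, odorant-binding proteins and cuticle proteins belong to large gene families, while ribosomal, proteasome and eggshell genes serve functions common to all egg-laying females.

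Each population was a single lineage, and its 4 arrays were repeats of that lineage. The p-values below measure differences among these 4 lineages against the spread between their arrays and say nothing of other promiscuous lineages. P1 females met only P1 and M1 males, and likewise for the other numbers, so the female's population and the number of her mates' populations cannot be told apart. Values are log2 intensities after RMA, a difference of 1 being a doubling of intensity, and array medians ranged over 5.41 to 5.50. Levels of different probe sets are not compared. As a check of the labelled sex, the 3 yolk protein genes Yp1, Yp2 and Yp3 lay at 14.5 to 14.8 and the chorion genes Cp36 and Cp38 at 11.7 to 13.4 on all 16 arrays. The accessory gland, testis and Y-linked markers lay at 2.57 to 4.96, 2.63 to 5.16 and 2.48 to 3.38.

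Population differences were widespread and mostly modest. A moderated F test over the 4 populations in limma, with batch and male regime as terms and Benjamini-Hochberg adjustment, called 1760 of 18769 probe sets at an adjusted p of 0.05, or 9.38%. These covered 1483 named genes. At an unadjusted p of 0.05 there were 4098 probe sets, or 21.8%. The highest population mean exceeded the lowest by a median of 0.44 among the called probe sets, against 0.14 over all tested probe sets. A range of at least 1 was reached by 175 called probe sets (0.932% of those tested), of at least 2 by 31 and of at least 3 by 5. Called probe sets were unevenly spread over brightness. With the probe sets cut into 4 equal groups by rising mean intensity, the called shares were 1.53%, 4.09%, 18.3% and 13.6%.

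Arrays resembled arrays of their own population more than any others. After batch means were removed, deviations from the overall mean correlated at 0.09 to 0.46 across probe sets within a population (24 pairs of arrays, median 0.27). The 96 pairs of arrays from different populations lay at -0.37 to 0.06, with a median of -0.16. Deviations from a mean cancel out across the arrays of a batch, so negative values between populations follow in part from the centring. On all 16 arrays the best-correlated partner came from the same population. The 6 pairs within P3 had the highest median, 0.39, and those within P1 the lowest, 0.20. P3 arrays stood at 15.2 to 18.0 on the first principal component, which held 20.2% of the variance, and the other 12 arrays at -8.71 to -2.93. The second component (14.1%) set P1 apart from P4, and a component after it (13.4%) held P2 at -16.4 to -10.8. On the fourth component (8.88%) the P1M1 array of batch 1 stood alone at 14.4, against 7.79 for the next array.

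**Figure D1:**
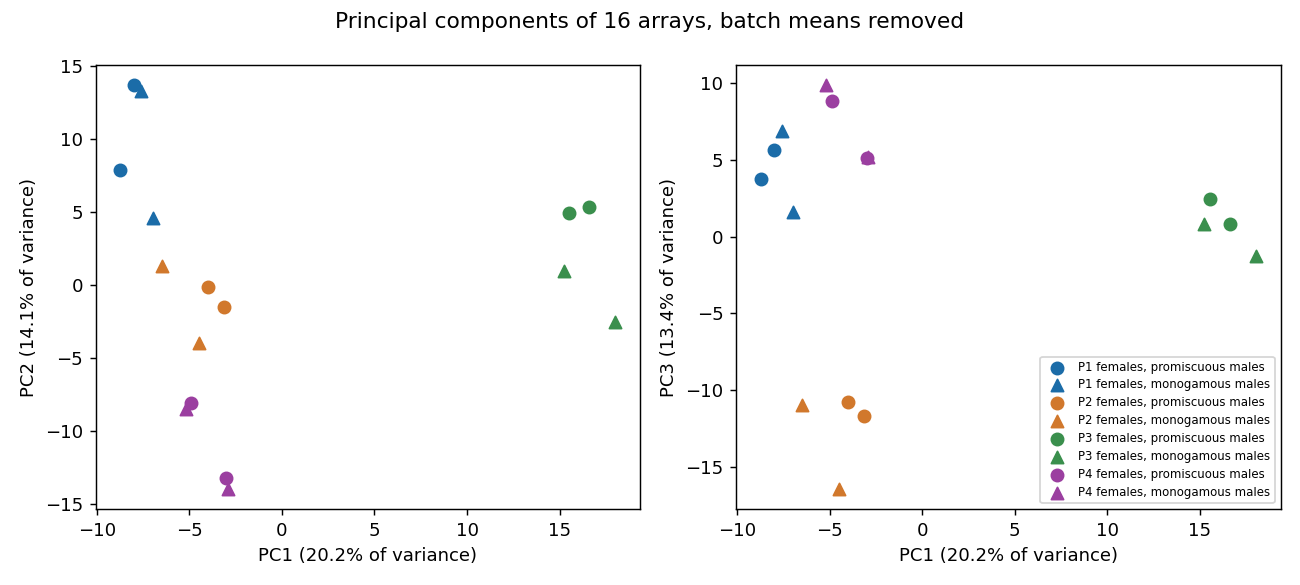
Each point is 1 of the 16 arrays of promiscuous females on principal components 1 and 2 (left) and 1 and 3 (right) of all tested probe sets, with batch means removed. Colours give the female population, triangles mates from monogamous and circles mates from promiscuous populations. P3 arrays lie at 15.2 to 18.0 on the first component, apart from all others, and arrays of a population group together whatever the males' regime.

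Of the summed squares of all probe sets, 41.3% lay between populations, 11.1% between batches, 5.37% between male regimes, 11.8% in the combination of population and male regime and 30.3% in the remainder. These parts hold 20%, 6.67%, 6.67%, 20% and 46.7% of the degrees of freedom. P3 stood farthest from the others. Over all tested probe sets its mean differed from P1, P2 and P4 by root mean squares of 0.190, 0.183 and 0.184, while the 3 pairs without P3 lay at 0.158 to 0.162.

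P3 also gave the most calls when each population was tested against the mean of the other 3. In limma 584 probe sets were higher (3.11%) and 521 lower (2.78%) in P3, or 5.89% together. P1 had 340 higher (1.81%) and 440 lower (2.34%), 4.16% together. P4 had 382 higher (2.04%) and 283 lower (1.51%), 3.54% together, and P2 had 239 higher (1.27%) and 262 lower (1.40%), 2.67% together. Probe sets on which all 4 arrays of a population lay above or below the other 12 numbered 176 (0.938%) and 135 (0.719%) for P3. The counts above and below were 68 (0.362%) and 110 (0.586%) for P1, 97 (0.517%) and 79 (0.421%) for P4, and 56 (0.298%) and 82 (0.437%) for P2. Such separation by any 1 population covered 769 probe sets (4.10%). Of the 1760 probe sets called by the F test, 817 passed the contrast of a single population, 834 those of more than 1 and 109 none. Leaving out 1 array moved these contrast counts by over 1.5 times in several cases. P3 had 692 to 734 calls without any 1 of its own arrays, against 1105 in all. P1 had 504 without P1P1 of batch 1, against 780. P2 had 327 without P2M2 of batch 1 and 296 without P2P2 of batch 2, against 501. P4 had 364 without P4M4 of batch 2, 418 without P4P4 of batch 1 and 397 without P4P4 of batch 2, against 665.

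**Figure D2:**
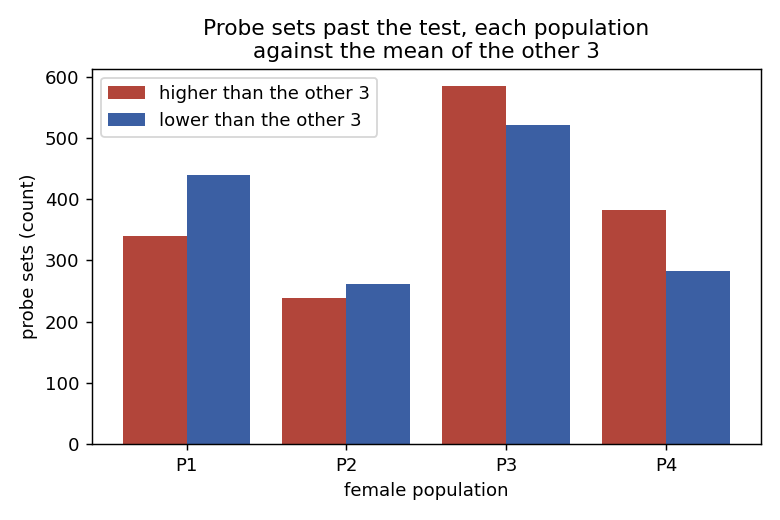
Bars count the probe sets called by limma at an adjusted p of 0.05 in each promiscuous population against the mean of the other 3, split into higher and lower. P3 has the tallest bars, 584 higher and 521 lower, and P2 the shortest, 239 and 262.

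Calls made on 1 set of arrays could be read in the arrays left aside. The F test on batch 1 alone called 605 probe sets. For 582 of them (96.2%) the population farthest from the others lay on the same side in batch 2, against 63.8% of all tested probe sets. The same population was farthest in 375 (62.0%), against 21.8%. In the reverse direction 554 of 563 calls (98.4%) kept their side, against 63.0%. Calls on the arrays with monogamous males kept their side with promiscuous males in 393 of 406 cases (96.8%), against 64.6% of all tested probe sets. The other way round 560 of 573 (97.7%) did so, against 65.0%. This reading was added after the results had been seen.

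Among named genes the widest range belonged to CG34251. Its P4 arrays read 7.92, 6.89, 8.50 and 7.06, against 3.57 to 4.49 on the other 12, so P4 stood clear of every other array. P4 averaged 7.60 ± 0.75, against 3.80 ± 0.11 in P1, 3.85 ± 0.23 in P2 and 4.14 ± 0.35 in P3 (SD, n = 4 each), a difference from the other 3 of 3.67 with an SE of 0.21 (limma adjusted p = 6.11e-08). Outside the promiscuous populations it was also high in M1, at a mean of 6.28, and at 3.81 to 4.53 in M2, M3 and M4.

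A pair of cytochrome P450 genes came next, both low in P3. Cytochromes P450 are haem enzymes that oxidise hormones, lipids and foreign compounds. Cyp4d21, also known as sex-specific enzyme 1, read 3.84, 4.15, 3.88 and 3.97 in P3, against 6.54 to 7.47 in P1, 6.84 to 7.65 in P2 and 4.63 to 6.24 in P4. P3 lay below every other array, and P4 below P1 and P2. The difference of P3 from the other 3 was -2.57 with an SE of 0.22 (limma adjusted p = 1.8e-06), and M3 had the lowest mean of the monogamous populations, 3.83. Cyp12d1-d, a mitochondrial P450 known from insecticide-resistant flies, read 5.16, 5.89, 6.39 and 3.90 in P3, against 7.84 to 9.15 on the other 12 arrays. Its P3 difference was -3.10 with an SE of 0.31 (limma adjusted p = 6.68e-06). The P3 arrays were also the most spread, with an SD of 1.09, and all of them lay below the other promiscuous populations. The Cyp12d1-d means of M1 to M4 were 8.54, 6.21, 4.29 and 6.52, with M3 below the P3 mean of 5.33. Cyp12d1-d has a near-identical copy, Cyp12d1-p, and the probes cannot be assumed to tell them apart.

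CG2772 was high in P3 and intermediate in P4. It read 6.94, 7.38, 7.01 and 6.58 in P3, against 4.92 to 6.46 in P4, 4.15 to 4.72 in P2 and 3.88 to 4.05 in P1, and no P3 array overlapped another population. P3 differed from the other 3 by 2.27 (SE 0.19, limma adjusted p = 1.12e-06) and P1 by -1.75 (SE 0.19, limma adjusted p = 4.99e-05). CG3397 was split evenly, with P3 and P4 low at means of 4.67 and 4.97 and P1 and P2 high at 7.14 and 7.42. CG6357 was split another way, low in P1 and P3 at 5.18 and 5.51, and high in P2 and P4 at 8.00 and 7.69. For CG3397 and CG6357 the 4 populations thus fell into high and low pairs, and the pairs differed between these genes.

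**Figure D3:**
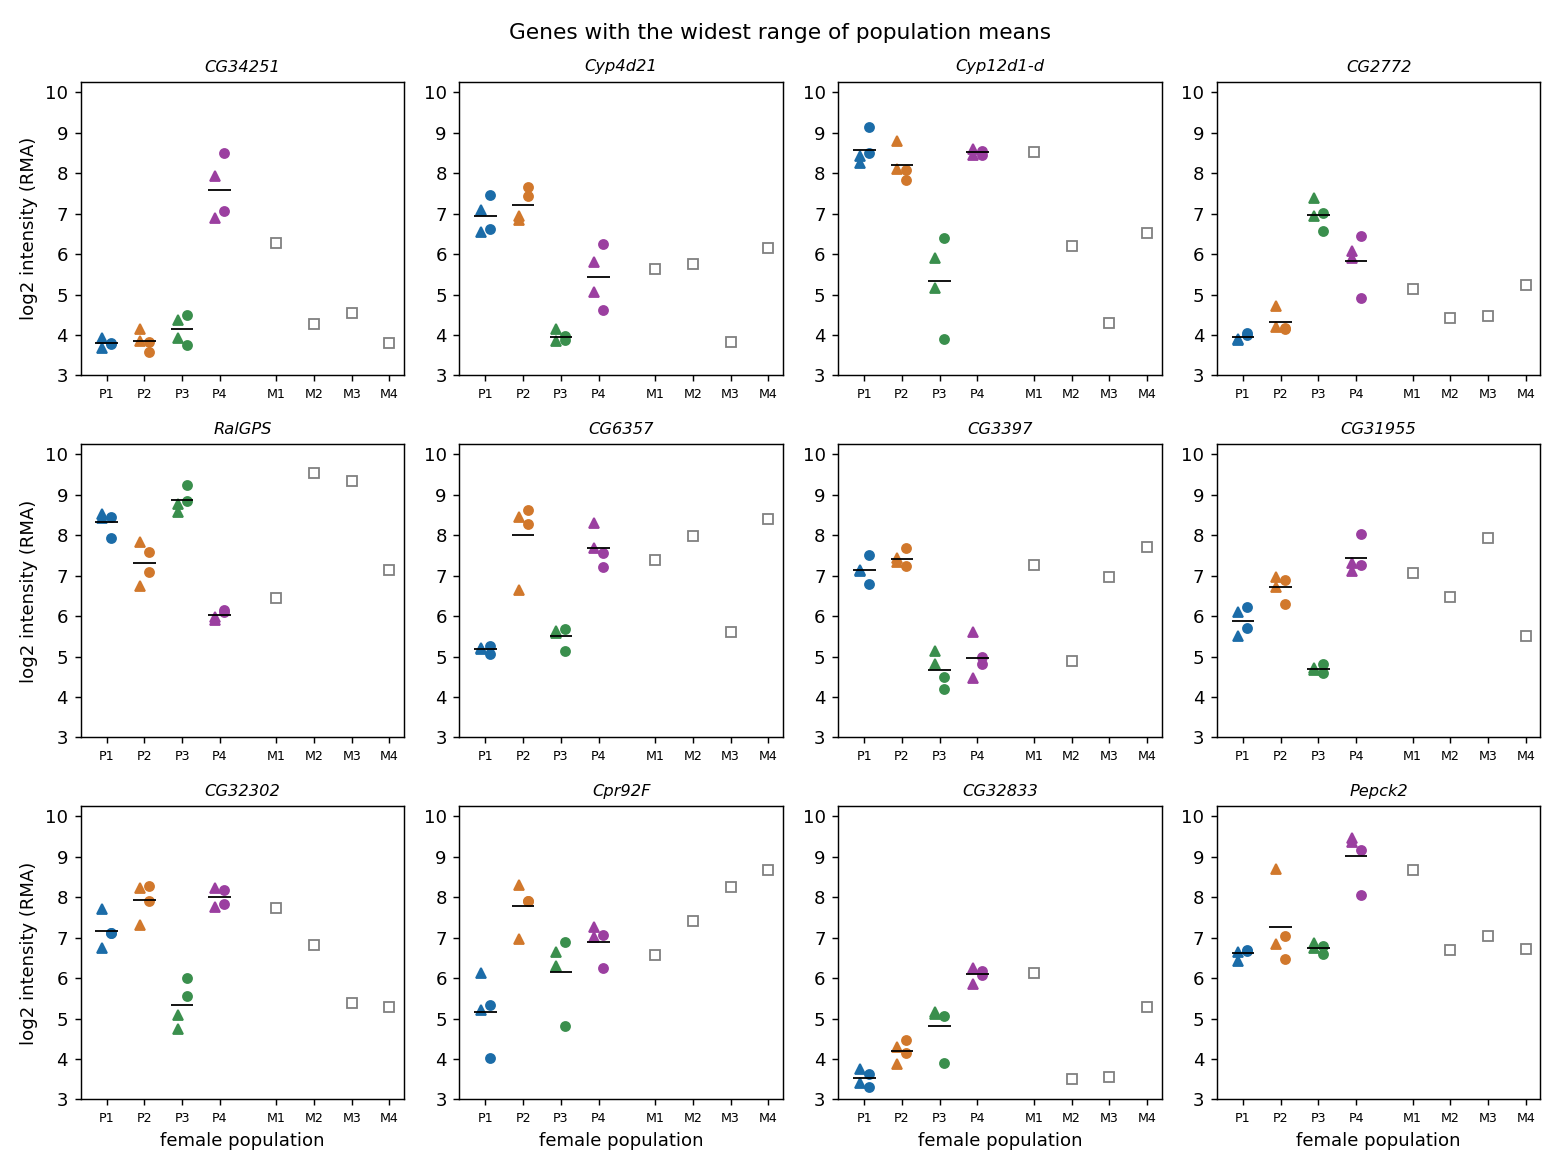
Log2 intensity of the 12 named genes with the widest range of population means. Coloured points are the 4 arrays of each promiscuous population (triangles, mates from monogamous populations; circles, mates from promiscuous ones), black bars their means, and open squares the means of the 4 monogamous populations. CG34251 is high only in P4 and M1, and Cyp4d21 is lowest in P3 and M3.

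Pepck2, one of the enzymes that make phosphoenolpyruvate for glucose synthesis, was high in P4. Its arrays read 9.48, 9.38, 8.07 and 9.16 in P4, against 6.44 to 6.71 in P1, 6.48 to 8.70 in P2 and 6.60 to 6.86 in P3. A single P2 array, P2M2 of batch 1, reached into the P4 range. P4 differed from the others by 2.14 with an SE of 0.26 (limma adjusted p = 0.000103). M1 had a mean of 8.67 and the other monogamous populations 6.69 to 7.04. RalGPS, which encodes an activator of the small GTPase Ral, was low in P4 at 5.91, 5.99, 6.10 and 6.14, against 6.75 to 9.24 on the other 12 arrays (difference -2.14, SE 0.15, limma adjusted p = 2.65e-07). Its probe set is of a kind shared by several transcripts, and M1 had the lowest mean of the monogamous populations, 6.46.

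In P1 the 4 genes farthest above the other populations, among those with all 4 arrays above the other 12, were CG31810, CG43085, Cda5 and CG15820. CG15820 read 8.38, 8.40, 8.31 and 8.48 in P1, against 6.51 to 7.29 on the other 12 arrays, a difference of 1.31 with an SE of 0.09 (limma adjusted p = 6.86e-07). The CG15820 means in M1 to M4 were 7.74, 6.95, 8.26 and 7.94. Another probe set of CG15820, at a mean of 4.23, ran the opposite way at -0.40. Cda5, a chitin deacetylase of the extracellular matrix, averaged 6.71 ± 0.24 in P1, against 5.26 to 5.44 in the others (SD, n = 4), a difference of 1.36. M3 was also high for Cda5, at a mean of 6.42, against 5.07 to 5.46 in M1, M2 and M4. CG31810 was highest in P1, at a mean of 9.40, and lowest in P4, at 7.20. M1 had the highest monogamous mean of CG31810, 9.22, and the others had 7.59 to 7.89. The gene CG43085 read 4.03, 5.95, 4.20 and 4.91 in P1, against 3.13 to 3.66 on the other 12 arrays. Its monogamous means were 3.31 to 3.56.

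Among genes with all 4 P1 arrays below the other 12, those farthest below were CG2772, CG32833, CG11891 and mod(mdg4). CG6357 and Cpr92F differed more in P1, by -1.89 and -1.77, but their P1 arrays overlapped those of P3. The gene mod(mdg4) encodes a large set of chromatin proteins made from alternative transcripts. One of its probe sets read 6.23, 6.35, 5.86 and 5.79 in P1, against 6.91 to 7.45 on the other 12 arrays, a difference of -1.16 with an SE of 0.10 (limma adjusted p = 8.79e-06). The other mod(mdg4) probe sets did not share it. Their P1 differences lay at -0.13 to 0.27, except for 1 dimmer probe set at -0.43. CG11891 averaged 4.99 in P1, against 6.38, 5.75 and 6.36 in P2, P3 and P4, a difference of -1.17 with an SE of 0.10.

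Of the genes with all 4 P2 arrays above the other 12, CG4250 stood farthest above, with values of 8.74, 8.77, 7.98 and 8.92 in P2, against 6.33 to 6.83 on the other 12 arrays. The difference was 1.96 with an SE of 0.10 (limma adjusted p = 1.91e-08). M2 and M4 were also high, at means of 8.61 and 8.45, while M1 and M3 stood at 6.71 and 6.67. Ir76a, a member of the ionotropic receptor family of chemosensory channels, read 6.04, 5.67, 5.59 and 5.33 in P2, against 3.63 to 4.29 elsewhere (difference 1.76, SE 0.11, limma adjusted p = 4.01e-08). Its means in M1, M2 and M3 were also high, at 5.43, 5.48 and 5.38, with M4 at 4.35. CG14219 and CG42565 were higher in P2 by 1.19 and 1.13, although another, brighter probe set of CG42565 was at -0.62. M1 had a CG14219 mean of 6.12, against 6.08 in P2 and 4.17 to 5.18 in M2, M3 and M4. For CG42565 M4 stood at 5.68, against 5.74 in P2 and 4.58 to 5.05 in M1, M2 and M3.

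Among genes with all 4 P2 arrays below the other 12, those farthest below were CG31681, CG32751, Alp2 and Jon65Aii. CG31681, a serine protease gene placed here with the spermathecal genes, read 7.61, 7.70, 7.31 and 7.12 in P2, against 7.75 to 10.02 on the other 12 arrays. Its P2 difference was -1.70 with an SE of 0.17 (limma adjusted p = 2.09e-05), and all 4 monogamous populations had higher means, 9.71 to 10.76. Alp2, an alkaline phosphatase, averaged 6.71 ± 0.36 in P2, against 8.43, 8.12 and 8.10 in P1, P3 and P4 (SD, n = 4), a difference of -1.51. Among monogamous populations M4 was lowest for Alp2, at a mean of 6.77, with M1, M2 and M3 at 8.21, 8.07 and 7.22. The gut serine protease Jon65Aii averaged 10.15 ± 0.65 in P2, against 11.65, 11.54 and 11.77, also a difference of -1.51. M2 was the lowest monogamous population for Jon65Aii, at 10.73, against 11.47 to 11.91 in M1, M3 and M4.

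Among genes with no overlap between P3 and the other 12 arrays, P3 was led by CG2772, the maltase Mal-A6, CG10559 and GstO3 among higher genes, and by Cyp12d1-d, Cyp4d21, CG32302 and CG31955 among lower ones. GstO3, a glutathione transferase of the omega class, read 11.15, 11.02, 10.55 and 11.37 in P3, against 8.79 to 9.76 on the other 12 arrays (difference 1.71, SE 0.12, limma adjusted p = 2.29e-07). All 4 monogamous populations were also below P3, at means of 8.30 to 9.90. CG10559 was higher in P3 by 1.81 with an SE of 0.13, at a P3 mean of 6.78. Its monogamous means were 7.68, 4.96, 6.29 and 5.75 in M1 to M4, so that M1 exceeded P3. CG31955 was lowest in P3, at 4.72, 4.66, 4.81 and 4.59, and highest in P4, at 7.32, 7.11, 7.27 and 8.04. P1 and P2 lay between them at means of 5.88 and 6.71. Of the monogamous populations M3 had the highest CG31955 mean, 7.93, and M1, M2 and M4 had 7.07, 6.47 and 5.51.

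In P4 the 4 genes farthest above, among those with all 4 arrays above the other 12, were CG34251, Cyp4e3, CG32833 and CG31955. Cyp4e3, another cytochrome P450, read 10.07, 8.94, 9.84 and 7.92 in P4, against 6.71 to 7.74 elsewhere, and all 4 monogamous means were at 6.88 to 7.38. The P4 difference was 1.97 with an SE of 0.21 (limma adjusted p = 2.17e-05), 2.55 in batch 1 and 1.39 in batch 2. Among genes with all 4 P4 arrays below the other 12, those farthest below were RalGPS, Obp56a, CG31810 and Drep1. Obp56a, an odorant-binding protein gene, read 5.85, 5.83, 7.14 and 6.21 in P4, against 7.78 to 8.77 on the other 12 arrays, a difference of -2.02 with an SE of 0.19 (limma adjusted p = 9.2e-06). Drep1, an inhibitor of the nuclease that cuts DNA in dying cells, was lowest in P4 at a mean of 6.36 and highest in P3 at 8.35. M3 was likewise the highest monogamous population for Drep1, at 8.45.

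Genes were then read by function, in 31 lists. Against the 9.38% of all tested probe sets called by the F test, digestive enzymes of the gut gave 36 of 52 probe sets (69.2%), with a median range of 0.45 against 0.14 over all. Both directions occurred in the contrast of each population, with 13 higher and 12 lower in P3 and 4 higher and 13 lower in P2. P1 had 8 higher and 8 lower, and P4 had 11 higher and 5 lower. Over all tested probe sets, 3.11% were higher and 2.78% lower in P3, and 1.27% and 1.40% in P2. The shares were 1.81% and 2.34% in P1, and 2.04% and 1.51% in P4. Among subfamilies, 8 of 8 Mal-A maltases, 2 of 2 Mal-B maltases, 11 of 13 Jonah serine proteases, 4 of 8 Npc2 sterol-binding proteins and 2 of 9 trypsins were called. Jon66Ci was highest in P4, at 6.92 to 7.27, against 5.57 to 6.17 on the other 12 arrays (difference 1.31, limma adjusted p = 2.65e-07). Npc2a was lowest in P3, at 10.38 to 10.71, against 11.02 to 11.45 elsewhere (difference -0.77, limma adjusted p = 1.29e-07). LysX, a lysozyme, averaged 5.72 in P3, against 7.56, 6.46 and 7.57 in P1, P2 and P4, and the protease Ser6 6.30 in P2, against 7.85, 7.48 and 7.94 in P1, P3 and P4. Amyrel, an amylase-related gene, was highest in P4 at 6.13, against 5.22, 4.72 and 5.35.

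The 8 Mal-A maltases, which split maltose and sucrose in the gut, lie next to each other and formed the longest run of called neighbouring genes. P3 was highest for 6 of them. Mal-A6 read 11.27, 11.00, 10.96 and 10.95 in P3, against 8.42 to 10.20 on the other 12 arrays, a difference of 1.92 with an SE of 0.17 (limma adjusted p = 2.37e-06). Mal-A1, Mal-A2, Mal-A3 and Mal-A4 were higher in P3 by 0.70, 0.86, 0.68 and 0.57. Mal-A5 ran the other way within the same cluster, with P3 lowest at 9.99 to 10.08, against 10.30 to 10.64 elsewhere (difference -0.44, SE 0.05, limma adjusted p = 1.04e-05). Mal-A7 was lowest in P2, at a difference of -0.98, and Mal-A8 highest in P1 at 0.57. For Mal-A6 the monogamous means were 9.32, 11.47, 11.79 and 10.94 in M1 to M4, so that M2 and M3 exceeded P3. These genes are similar in sequence, and cross-hybridisation between them was not tested.

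**Figure D4:**
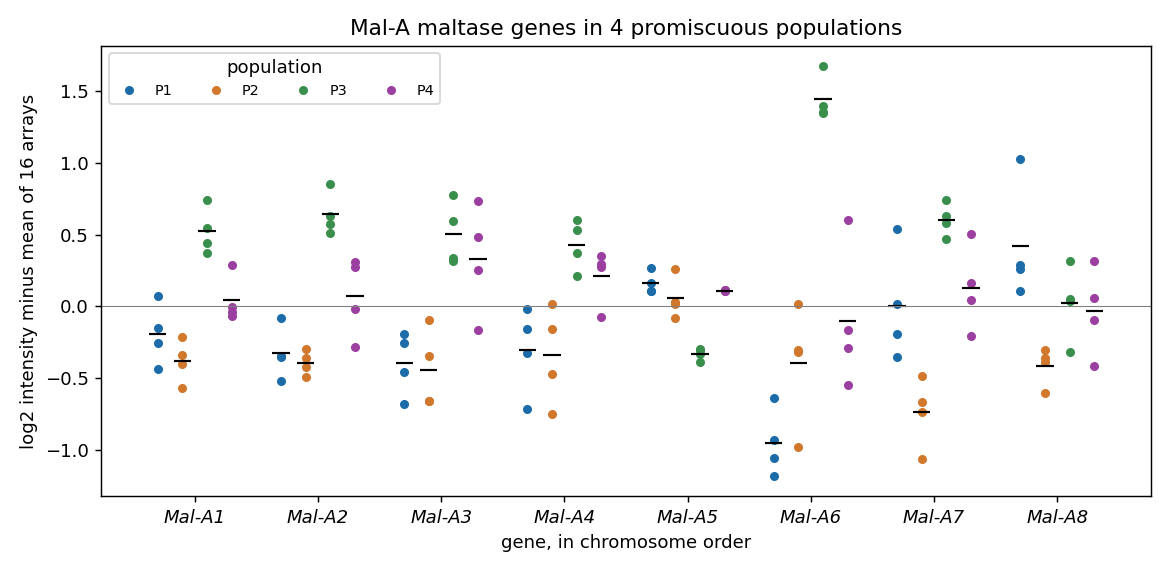
Log2 intensity of the 8 Mal-A maltase genes on each of the 16 arrays, minus the gene's mean over those arrays, in the order of the genes along the chromosome. Points are arrays, coloured by population, and bars are population means. P3 is highest for Mal-A1 to Mal-A4, Mal-A6 and Mal-A7 and lowest for Mal-A5.

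Detoxification genes also differed often. Of 83 cytochrome P450 probe sets, 31 were called (37.3%). In the contrasts of single populations 13 were lower and 7 higher in P3, and 16 higher and 3 lower in P4. P1 had 9 higher and 2 lower, and P2 had 2 higher and 4 lower. Over all tested probe sets, 2.78% were lower and 3.11% higher in P3, and 2.04% higher and 1.51% lower in P4. The shares were 1.81% higher and 2.34% lower in P1, and 1.27% and 1.40% in P2. Besides the genes above, Cyp6w1 read 5.72 to 6.08 in P3, against 6.82 to 8.06 on the other 12 arrays (difference -1.55, SE 0.09, limma adjusted p = 4.15e-08). Cyp6a2, linked to resistance against DDT, read 6.25 to 6.57 in P3, against 7.08 to 8.30 elsewhere (difference -1.24, limma adjusted p = 1.26e-06). Cyp4p1 went the other way, at 8.94 to 9.12 in P3, against 7.05 to 8.44 (difference 1.28). In M3 Cyp6w1 and Cyp6a2 had the lowest and Cyp4p1 the highest mean of the monogamous populations, at 5.84, 6.05 and 8.73. Cyp6g1, a further gene known from insecticide resistance, ranged only over population means of 8.52 to 9.15.

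Glutathione transferases, which attach glutathione to reactive compounds, gave 15 of 36 (41.7%). The P4 contrast held 8 higher and 2 lower. Higher and lower counts were 1 and 4 in P1, 3 and 3 in P2 and 2 and 4 in P3. Over all tested probe sets, 2.04% were higher and 1.51% lower in P4, and 1.81% and 2.34% in P1. The shares were 1.27% and 1.40% in P2, and 3.11% and 2.78% in P3. GstD1 was lowest in P2, at 12.99 to 13.10, against 13.14 to 13.60 on the other arrays (difference -0.40, SE 0.04, limma adjusted p = 1.22e-05), while its relative GstD5 was highest there, at 5.82 to 6.16, against 4.16 to 5.54 (difference 1.04). UDP-glycosyltransferases gave 4 of 35 (11.4%), led by Ugt49C1, higher in P1 by 0.97 with an SE of 0.10. The P1 mean of Ugt49C1 was 7.72, and M1 had the highest monogamous mean, 7.73.

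**Figure D5:**
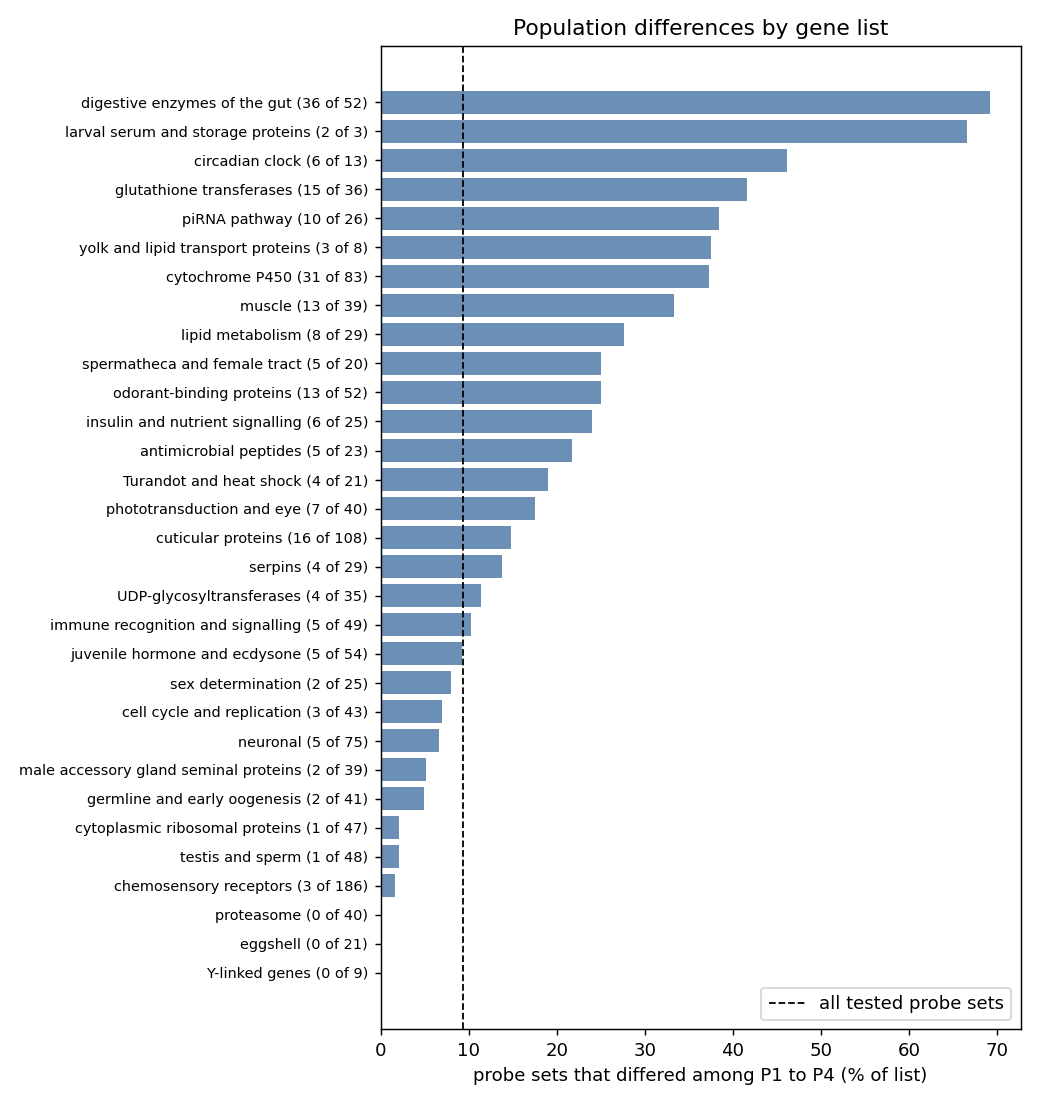
Bars give the percentage of each gene list's probe sets that differed among P1 to P4 by the F test, with counts in the labels, and the dashed line is the percentage over all tested probe sets (9.38%). Digestive enzymes reach 69.2% and cytochromes P450 37.3%, while eggshell, proteasome and Y-linked genes have no called probe set.

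Immune genes gave mixed counts. Antimicrobial peptides had 5 of 23 called (21.7%), and recognition and signalling genes 5 of 49 (10.2%), close to the share of all probe sets. The drosomycin-like gene Drsl4 split the populations evenly. It averaged 8.10 ± 0.22 in P3 and 8.31 ± 0.27 in P2, against 10.47 ± 0.48 in P1 and 10.50 ± 0.30 in P4 (SD, n = 4), without overlap between the pairs (limma F test adjusted p = 6.36e-08). PGRP-SC2, which encodes a secreted amidase that degrades peptidoglycan, was highest in P3, at 10.24 to 10.95, against 8.01 to 10.12 elsewhere (difference 1.60, limma adjusted p = 0.00202). The prophenoloxidase genes PPO1 and PPO2, which act in melanisation, were higher in P1 by 0.73 and lower in P2 by 0.54 on the log2 scale. TotC, a Turandot stress gene, was lower in P4 by 1.29, a call that ended without P4M4 of either batch (limma adjusted p of 0.0813 for batch 1 and 0.0544 for batch 2).

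Odorant-binding proteins, soluble carriers found in sensory organs and other tissues, gave 13 of 52 (25.0%), and the chemosensory receptors gave 3 of 186 (1.61%). Lists were not matched for brightness, and only 1.53% of the dimmest of 4 equal groups of probe sets were called. The part of brightness in the shares of these lists was not tested. Obp57a was highest in P3, at 9.66 to 10.27, against 7.74 to 8.97 on the other arrays (difference 1.63, SE 0.16, limma adjusted p = 4.63e-06). Obp99a was highest in P4 at a mean of 12.49, against 11.75, 12.13 and 11.80 in P1, P2 and P3. The median range of the receptors was 0.13, near the 0.14 of all probe sets.

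Cuticle genes gave 16 of 108 (14.8%). In the contrasts of single populations 8 were higher and 1 lower in P2, and 1 higher and 5 lower in P1. P3 had 2 higher and 6 lower, and P4 had 1 higher and 1 lower. Over all tested probe sets, 1.27% were higher and 1.40% lower in P2, and 1.81% higher and 2.34% lower in P1. The shares were 3.11% higher and 2.78% lower in P3, and 2.04% and 1.51% in P4. Cpr92F averaged 5.17 ± 0.87 in P1, against 7.78 ± 0.56 in P2, 6.16 ± 0.93 in P3 and 6.90 ± 0.44 in P4 (SD, n = 4). The P1 difference was -1.77 with an SE of 0.29 (limma adjusted p = 0.00164). Acp65Aa, a cuticle protein despite its symbol, averaged 8.87 in P2, against 7.20, 7.21 and 8.34 in P1, P3 and P4. Among serpins, inhibitors of serine proteases, 4 of 29 were called (13.8%), against 9.38% of all tested probe sets. Spn38F read 4.21 to 4.91 in P3, against 2.71 to 3.24 elsewhere, and M4 had a mean of 6.06 against 2.95 to 3.78 in the other monogamous populations.

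Counts of reproductive genes varied by list, against 9.38% called over all tested probe sets. Eggshell genes had 0 of 21 called although their median range was 0.49. Germline and early oogenesis genes gave 2 of 41 and the testis and seminal protein lists 1 of 48 and 2 of 39. One of the last 2 was Acp65Aa, and the other Acp76A, at 3.05 to 3.57 on all arrays. Yolk and lipid transport genes gave 3 of 8, with ranges of 0.08 for Yp2, 0.13 for apolpp and 0.47 for Lsd-1. All 3 calls ended without at least 1 array. The piRNA pathway, which silences transposons in the germline, gave 10 of 26 (38.5%) with ranges of 0.21 to 0.47. The germline transcription factor moon was lower in P4, at 7.61 to 7.83, against 7.79 to 8.38 elsewhere (difference -0.42, limma adjusted p = 7.53e-05). The methyltransferase gene Hen1 was lower in P3 by 0.34 and the Tudor-domain gene SoYb higher in P1 by 0.34.

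Female tract genes gave 5 of 20 (25.0%), against 9.38% of all tested probe sets. The sex peptide receptor gene SPR, through which a seminal peptide changes female behaviour after mating, was lowest in P2, at 6.80, 6.69, 7.22 and 6.99, against 6.98 to 7.92 on the other 12 arrays. P2 overlapped the lowest P4 array. The P2 difference was -0.67 with an SE of 0.11 (limma adjusted p = 0.00149), and the lowest monogamous mean was that of M2, 6.10. A dim second probe set of SPR was at 0.27 with no call. The peptidase gene Ance was higher in P4 by 0.27.

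Muscle genes gave 13 of 39 probe sets (33.3%), with population means ranging over 1.20 for fln, 1.05 for Act88F and 0.17 to 0.69 for the others called. The contrasts held 0 higher and 4 lower in P1, and 1 higher and 0 lower in P2. P3 had 3 higher and 5 lower, and P4 had 4 higher and 0 lower. Over all tested probe sets, 1.81% were higher and 2.34% lower in P1, and 1.27% and 1.40% in P2. The shares were 3.11% and 2.78% in P3, and 2.04% and 1.51% in P4. The flight muscle actin Act88F averaged 11.49 ± 0.39 in P3, against 12.18, 11.87 and 12.54 in P1, P2 and P4 (SD, n = 4), a difference of -0.71 (limma adjusted p = 0.00611). The flight muscle gene fln, flightin, was lower in P3 by 0.94, and that call ended without either P3P3 array (limma adjusted p = 0.0652 and 0.0814). Act79B was higher in P3 by 0.20, and called Strn-Mlck probe sets lay at 0.20 and -0.49 there. The median P3 difference of the muscle list was 0.05. In RNA of whole flies, fewer cells of a type and less RNA per cell cannot be told apart. Neuronal genes gave 5 of 75 (6.67%), below the 9.38% of all tested probe sets. The synaptic gene Snap25 read 8.41 to 8.56 in P1, against 8.72 to 9.33 on the other arrays (difference -0.49, SE 0.06, limma adjusted p = 0.000288). Gad1, which makes the transmitter GABA, and the acetylcholine receptor gene nAChRbeta1 were lower in P1 by 0.33 and 0.35. In the P1 contrast 5 neuronal probe sets were lower and 0 higher, against 2.34% lower and 1.81% higher over all tested probe sets. The P3 contrast held 4 higher and 1 lower, against 3.11% higher and 2.78% lower over all tested probe sets. The neuronal list's median P1 difference was -0.08. The potassium channel gene Sh was higher in P3 by 0.51, while other Sh probe sets lay at -0.18 to 0.31. Phototransduction genes gave 7 of 40 (17.5%).

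Hormone, nutrient and clock genes followed. Juvenile hormone and ecdysone genes gave 5 of 54 (9.26%), close to the 9.38% of all tested probe sets. Both Cyp18a1 probe sets given below were among these calls, and they also count in the cytochrome P450 list. Kr-h1, a transcription factor of the juvenile hormone response, averaged 7.05 in P1, against 7.46, 7.84 and 8.22 in P2, P3 and P4 (difference -0.79, SE 0.14, limma adjusted p = 0.00334). Jhe, which degrades juvenile hormone, was lower in P4 by 0.56, and Cyp18a1, which inactivates ecdysone, was higher in P1 by 0.46, with a second probe set of Cyp18a1 at 0.36. Insulin and nutrient genes gave 6 of 25 (24.0%), with the sugar-responsive factor sug lower in P4 by 0.64 and tobi, an alpha-glucosidase under insulin and nutrient control, lower in P2 by 0.56. Lipid metabolism genes gave 8 of 29 (27.6%), with the fatty acid synthase genes FASN3 lower in P1 by 0.40 and FASN2 lower in P3 by 0.39. Larval storage genes gave 2 of 3, led by Lsp2, at 13.09 to 13.44 in P1, against 11.91 to 12.92 elsewhere (difference 0.78, limma adjusted p = 0.000156).

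Clock genes gave 6 of 13 (46.2%), against 9.38% of all tested probe sets. Pdp1, an activator in the second loop of the clock, was highest in P4, at a mean of 8.72, with P1 at 8.48, against 7.54 in both P2 and P3 (P4 difference 0.86, limma adjusted p = 0.014). The cryptochrome gene cry ranged over 0.31 and cwo, a repressor in the clock, over 0.42. The hour of the day at freezing is not given in the sources used here, and its part in these values was not tested. Genes of basic cell functions gave 1 of 47 ribosomal protein probe sets, with a median range of 0.06, 0 of 40 for the proteasome and 3 of 43 for the cell cycle.

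Called genes often stood beside each other. Of 11894 genes placed in chromosome order 1473 were called (12.4%), and the next gene along was called after 18.3% of called genes (270 of 1472) and after 11.5% of genes not called. In 84 of those 270 pairs (31.1%) both genes had the same farthest population on the same side, against 13.6% over all pairs of called genes. After the maltases, the run given next held CG33307, CG8997, CG7916, CG7953, CG7968 and Ance. The first 4 were lowest in P2, by 0.38, 0.64, 0.81 and 0.74 on the log2 scale, while CG7968 was highest in P3 at 0.62 and Ance highest in P4 at 0.27.

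Probe sets of the same gene agreed only in part. In 177 genes with a called probe set and at least 1 other, another was also called in 34 (19.2%). Of the 312 other probe sets 186 (59.6%) lay in the same direction for the farthest population, as did 26 of the 38 that were called themselves. Among those brighter than the median of all tested probe sets the share was 60.8%. A named value therefore holds for its probe set and not always for every transcript of the gene.

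It was also asked whether the populations answered differently to the males' regime. The population by male regime term called 0 of 18769 probe sets in limma (0.00%), with 647 at an unadjusted p of 0.05 (3.45%). By chance alone 938 would be expected at that level, so the genes named below are not results of this term. The smallest adjusted p was 0.156, for Tsf1, an iron-binding transferrin. The Tsf1 response, with promiscuous males minus with monogamous males, was -0.85 in P1, 0.28 in P2, -0.03 in P3 and -0.52 in P4. Its P1 arrays read 11.32 and 11.51 with P1 males, against 11.99 and 12.55 with M1 males. Adk3, an adenylate kinase gene, responded by -0.84, 0.63, 0.07 and -0.43 in P1 to P4, and CG14499 by 1.09 in P4 with no call. The count moved with single arrays. It was 7 without P1M1 of batch 1, 6 without P3M3 of batch 2, 2 without P4M4 of batch 2, and 1 without P1M1 or P2P2 of batch 2 or P3P3 of batch 1. In monogamous females the same term called 6 probe sets (0.0320%).

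The 4 monogamous populations, which share the design, gave a similar picture. Their F test called 2127 probe sets (11.3%), 242 of them with a range of at least 1 (1.29%). Both regimes shared 831 calls, which is 47.2% of the promiscuous and 39.1% of the monogamous calls, while 7.62% of the probe sets not called among promiscuous populations were called among monogamous ones. Probe sets that varied in 1 regime thus often varied in the other, but the direction followed the population's number only weakly. Across the 1760 called probe sets the deviations of P3 and M3 from their regime means correlated at 0.23, those of P2 and M2 at 0.13, of P1 and M1 at 0.08 and of P4 and M4 at 0.03. Pairs of different numbers lay at -0.18 to 0.16. The points of these correlations are probe sets of shared arrays and are not independent.

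Promiscuous populations lay somewhat nearer to each other than monogamous ones. The root mean squared deviation from the regime mean over all tested probe sets was 0.103, 0.0994, 0.121 and 0.101 in P1 to P4, against 0.133, 0.115, 0.121 and 0.115 in M1 to M4. The means were 0.106 ± 0.00985 and 0.121 ± 0.0081 (SD, n = 4 each), a difference of -0.0153 that did not pass the threshold (two-sided exact permutation p = 0.0857, where the smallest possible is 0.0286). P3 overlapped the monogamous range. A mean of 3 populations lies nearer to its members than a mean of 4, so deviations were put back on the scale of 4 when 1 population was left out, a step added after the results had been seen. The difference was then -0.0229 without P3, with an exact permutation p of 0.0286. It was -0.00950 without M1, with an exact permutation p of 0.143, and -0.0182 to -0.0119 without any of the other 6, with exact permutation p of 0.0857 to 0.171.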

How the data were processed

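Values came from 1 deposited table of log2 intensities. Per the submitters' processing notes, the authors used RMA from the affy package. Versions are not given in the sources used here. RMA subtracts background and forces arrays onto 1 distribution, so a shift shared by most genes would not be visible, and dim probe sets are compressed. The array design was read from array names in the labels. Of the probe sets 183 controls were left out and 18769 tested. The platform annotation, which is old, gave 13647 of these 1 gene, 402 several and 4720 none, and 13544 matched RefSeq genes (assembly Release 6 plus ISO1 MT), used only for current names and gene order. Precision depends on the number of arrays, as no reads were counted.

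Groups came from the labels of female regime and array title. The label tag for the female's population appears 2 times per array and was read as the female's and then the male's. Batch equals the replicate number of a cross, so the additive batch term is the replicate block, which pairs arrays because the labels state it as a batch. Models were fitted in R 4.3.3 with limma 3.58.1 (lmFit, eBayes with intensity trend, two-sided, Benjamini-Hochberg over all tested probe sets, threshold 0.05), tested on simulated data. Levels are means of 4 arrays and contrasts are 1 population minus the mean of the other 3. Regimes were compared as 4 against 4 populations with an exact permutation test. The members, gene lists and tests were chosen with earlier results of these data known. Named genes were, among probe sets with 1 gene, the 12 called with the widest range, the 4 highest and 4 lowest of each population with all arrays outside the other 12, up to 4 of smallest p in each list, the 8 of smallest p for population by male regime, and the 2 longest runs of called neighbours. Other list members are given from the F test and were singled out after their values were seen. Alternatives left out or added terms, renormalized, filtered the dimmest 40%, weighted arrays, split the arrays, or left out each array.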

Additional observations from a re-analysis of the deposited data

Results flagged for a closer look

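Single arrays stood away from the other 3 of their population in 22 of 548 groups of 4 arrays looked at, over 137 named probe sets. At 1 in 20 groups, 27.4 would be marked by chance, so the pattern as a whole is no more than that rate. The gap of the outlying array to its nearest neighbour exceeded Dixon's 95% critical value in each case.

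In P1, the P1M1 array of batch 2 read 5.43 for CG14219, against 4.56 to 4.60 on the other P1 arrays, and P1M1 of batch 1 read 8.45 for the serpin Spn42Dd, against 8.29 to 8.31. P1P1 of batch 1 was low for CG4250 at 6.71, against 6.81 to 6.83. P1P1 of batch 2 was low for RalGPS at 7.94 (others 8.43 to 8.53) and for nAChRbeta1 at 7.16 (others 7.45), and high for Cyp6a2 at 8.30 (others 7.71 to 7.80).

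In P2, the P2M2 array of batch 1 was high for CG2772 at 4.72 (others 4.15 to 4.20), Ugt36A1 at 6.94 (others 6.78 to 6.79), Cpr47Ea at 7.01 (others 6.79 to 6.82) and cry at 8.11 (others 7.92 to 7.93). P2M2 of batch 2 read 8.85 for CG31810, against 8.01 to 8.13, and 5.75 for CG32751, against 6.49 to 6.60. P2P2 of batch 1 read 11.20 for Npc2a, against 11.38 to 11.40.

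In P3, the P3P3 array of batch 2 read 3.91 for CG32833, against 5.08 to 5.16, which was the widest of these gaps. P3M3 of batch 1 was high for the maltase Mal-A6 at 11.27, against 10.95 to 11.00, and P3P3 of batch 1 for cry at 8.20, against 7.97 to 8.01.

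In P4, the P4P4 array of batch 1 was low for Jon65Aii at 11.58 (others 11.81 to 11.85), BomS6 at 10.26 (others 10.45 to 10.48) and Obp99a at 12.29 (others 12.53 to 12.57). P4M4 of batch 1 was low for GstD1 at 13.50 (others 13.58 to 13.60) and Mal-A4 at 7.83 (others 8.18 to 8.26), and P4M4 of batch 2 was high for Drsl5 at 10.22 (others 9.88 to 9.93).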

How the results depend on the processing

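The count of 1760 called probe sets among promiscuous populations was 1403 to 1659 when 1 array was left out. Of 146 named values 0 changed sign under any setting, with 138 of them read without the dimmest 40%. The named values were chosen from these same arrays, so a kept sign was likely beforehand and is no separate support. Some genes count more than once among the 146, and the values for population by male regime are not among them. With the batch term left out (no replicate block) limma called 1324 probe sets among promiscuous populations, 552 for P1, 380 for P2, 787 for P3, 493 for P4, 0 for population by male regime and 1532 among monogamous populations. Other settings gave 1507 calls without the intensity trend, 1691 without the male regime term, 1544 with population by male regime terms, 2306 with the cross as a random block, 1819 quantile normalized again, 1742 centred, 1866 without the dimmest 40%, 1909 with array weights and 1849 with all 32 arrays in 1 fit. With the cross as a random block the monogamous count was 3418, and the cause was not tested. The counts for all 4 promiscuous populations, for P1, P2, P3 and P4, and for the monogamous populations were 605, 233, 207, 379, 204 and 1041 in batch 1 alone. They were 563, 199, 141, 320, 302 and 781 in batch 2 alone, 406, 101, 146, 275, 148 and 344 with monogamous males alone, and 573, 197, 171, 361, 219 and 963 with promiscuous males alone. Each of these 4 settings uses 8 of the 16 arrays. Without 1 array the counts were 504 to 846 for P1, 296 to 507 for P2, 692 to 1146 for P3, 364 to 684 for P4, 0 to 7 for population by male regime and 1706 to 2252 among monogamous populations. The difference in distance between regimes was -0.0285 to -0.00289 without 1 population, values that move by construction because a mean of 3 populations lies nearer to its members. Rescaled to 4 populations it was -0.0229 to -0.00950, past the threshold only without P3. Of the named values 125 kept their call without each array in turn and 21 lost it without at least 1. Those lost include Lsd-1, Yp2, mei-9, Mcm2, mei-S332, Hsp26, Spn42Da, cyc, BomS4, fln and TotC. The random block was not run for population by male regime, since the cross is the unit of that term, and 1 batch alone leaves no residual degrees of freedom for it. Dim probe sets limit the list counts: among the dimmest of 4 equal groups 1.53% were called.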

Other observations

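Among genes not described above, the doublesex gene dsx, which directs sexual differentiation, read 5.45 to 6.02 in P4, against 4.81 to 5.53 on the other 12 arrays (difference 0.54, limma adjusted p = 0.0121), with a brighter second probe set at 0.27. The haemocyte gene NimB3 averaged 8.28 in P4 and 9.27 in P3, with P1 and P2 at 8.85 and 8.73. The serpin gene Spn43Aa was lowest in P3, at 3.79 to 4.07, against 4.58 to 6.01 on the other 12 arrays, and the means of M2, M3 and M4 were also low at 4.14, 4.16 and 4.22, with M1 at 5.13. CG32302 was lowest in P3 at 4.73 to 6.00, against 6.74 to 8.29 on the other 12 arrays, and M3 and M4 were also low at means of 5.39 and 5.30. CG32833 had means of 3.52 in P1, 4.20 in P2, 4.82 in P3 and 6.09 in P4, and 6.12, 3.52, 3.55 and 5.29 in M1 to M4. CG32751 was above every monogamous mean in P1, P3 and P4, at 7.44, 8.76 and 7.83, with P2 at 6.36, against 6.72, 3.75, 5.74 and 6.20 in M1 to M4. The storage protein receptor gene Fbp1 averaged 5.62 in P3, against 4.76, 5.11 and 4.71 in P1, P2 and P4. The tut gene responded to promiscuous males by 0.95 in P4 and by -0.15, 0.01 and -0.04 in P1, P2 and P3, with no call for the difference between populations.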
